A study of Mus musculus with 6 samples.

Results

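The genes described here are 10 genes of the pluripotency circuit of mouse embryonic stem cells (mESCs): *Pou5f1*, *Sox2*, *Sall4*, *Sall1*, *Zfp42*, *Tcl1*, *Dppa2*, *Dppa4*, *Dppa5a* and *Gdf3*. They were chosen by name, from 53390 annotated genes of which 18177 were tested, and all 10 were tested. Their RNA was measured by poly(A)-selected, stranded RNA-seq in 6 libraries, each made from 500 ng of total RNA. All 6 came from TKO mESCs, which lack *Dnmt1*, *Dnmt3a* and *Dnmt3b*, so the deletion of the DNA methyltransferases was shared by both groups and its own effect was not measured. In 3 libraries the cells were in 2i (TKO-2i), a serum-free medium with the MEK inhibitor PD0325901 at 1 µM, the Gsk3 inhibitor CHIR99021 at 3 µM and LIF at 1000 U/ml. In the other 3 they were in medium with 15% foetal calf serum and LIF at 500 U/ml and no inhibitor (TKO-serum). Serum, basal medium, inhibitors and LIF dose changed together between the groups, so their effects cannot be told apart. The comparison asks how the RNA of the pluripotency circuit differs between these media when DNA methylation cannot respond. Total estimated counts were 46228700, 44180642 and 43896549 in TKO-2i and 38274042, 51932739 and 44827609 in TKO-serum, and the fewest counts of any of the 10 genes in a library were 2830, for *Dppa4*.

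Oct4, the product of *Pou5f1*, and Sox2 bind DNA together at composite elements and hold the pluripotent state, along with Nanog and the zinc-finger protein Sall4. 2i blocks differentiation signals and holds mESCs in a uniform naive state, whereas cells in serum are a mixture of states. The Dppa genes are named for their expression in pluripotent cells and do not all encode the same kind of protein. Dppa2 and Dppa4, both SAP-domain proteins, act as a pair on chromatin.

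The RNA of the knocked-out genes was still detected, and since the counts cover whole transcripts they do not check the deletion. *Dnmt1* RNA was 150, 154 and 155 CPM (counts scaled to the library total with TMM factors) in TKO-2i and 129, 130 and 129 CPM in TKO-serum. *Dnmt3a* RNA was 7.14, 7.46 and 7.36 CPM in TKO-2i against 30.2, 29.4 and 30.7 CPM in TKO-serum. *Dnmt3b* RNA was 19.0, 20.3 and 20.6 CPM in TKO-2i against 43.1, 42.3 and 44.0 CPM in TKO-serum. *Dnmt1* was thus higher and the *de novo* enzymes lower in TKO-2i, with no overlap between groups for any of the 3 genes. Whether these transcripts carry the deletions was not tested.

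The label of embryonic stem cells was checked against 8 markers (*Pou5f1*, *Sox2*, *Nanog*, *Zfp42*, *Dppa5a*, *Esrrb*, *Utf1* and *Fgf4*), of which all 8 were detected in every library. Their summed level was 5181, 4463 and 4820 CPM in TKO-2i, against 5283, 4856 and 4998 CPM in TKO-serum, with *Pou5f1* the gene of most CPM, a scale without gene length, and the sums of the groups overlapped. Of these markers 2 rose and 3 fell in TKO-2i and 3 did not pass the test, and with upper-quartile scaling 2 rose and 5 fell.

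Among the 10 genes, 6 had less RNA in TKO-2i (*Dppa4*, *Sall4*, *Dppa2*, *Sall1*, *Sox2* and *Zfp42*), 1 had more (*Tcl1*), and 3 did not pass the test (*Pou5f1*, *Dppa5a* and *Gdf3*), by edgeR's quasi-likelihood test at a Benjamini-Hochberg adjusted p under 0.05. Of all tested genes 62.5% were called in either direction, 30.6% as lower and 31.9% as higher in TKO-2i, so 7 of 10 is a share near the background. The median log2 fold change (TKO-2i over TKO-serum) was −0.40 over the 10 genes and 0.01 over all tested genes, and the median absolute value was 0.42 against 0.44. None of the 10 genes passed an absolute log2 fold change of 2, which 9.19% of tested genes did in edgeR. DESeq2 also called 0 of the 10 at that size, while 7 had an unadjusted p under 0.05 in edgeR. The CPM of the groups did not overlap for 8 of the 10 genes, against 67.5% of tested genes. In RNA from bulk cultures, fewer cells that express a gene and less RNA per cell cannot be told apart.

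Levels were compared between genes per length, as TPM (abundance per transcript length, as a part of the library). *Dppa5a* was the most abundant of the 10 in both media, at a mean of 2274 ± 234 TPM in TKO-2i and 2659 ± 213 TPM in TKO-serum (SD, n = 3), followed by *Pou5f1*, *Zfp42* and *Sox2*. Among 21836 protein-coding genes *Dppa5a* ranked 46th by TPM in TKO-2i and 33rd in TKO-serum, and *Pou5f1* ranked 109th and 98th. The order of these leading 4 was the same in both media, with no overlap of TPM between neighbours. Below them the order differed. In TKO-serum, *Dppa4* was next at 137 ± 5.93 TPM (SD, n = 3) and *Tcl1* and *Sall1* were last, whereas in TKO-2i *Tcl1* was next at 113 ± 5.12 TPM (SD, n = 3). In TKO-2i the TPM ranges of *Gdf3* and *Dppa2*, *Dppa2* and *Sall4*, *Sall4* and *Dppa4*, and *Dppa4* and *Sall1* overlapped, so neighbours at that end of the order did not differ beyond their spread. The same held in TKO-serum for *Dppa2* and *Sall4* and for *Sall4* and *Gdf3*. The 10 genes together held a mean of 0.443% of all TPM in TKO-2i and 0.550% in TKO-serum.

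**Figure D1:**
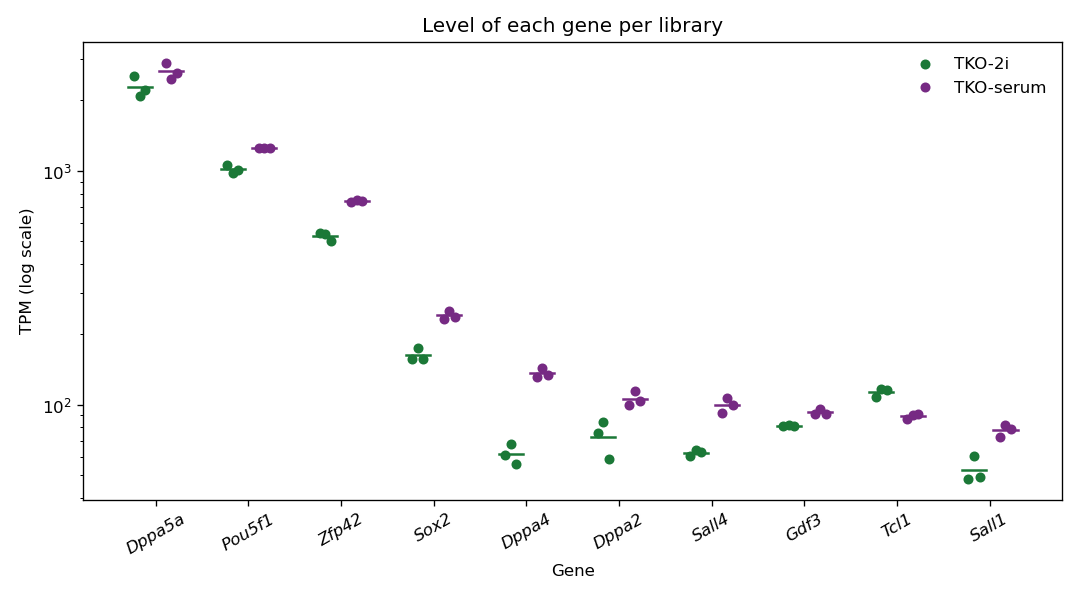
TPM of each of the 10 genes (log scale) in the 3 TKO-2i libraries (green) and the 3 TKO-serum libraries (purple), with a point for each library and a line at the group mean. *Dppa5a* lies above 2081 TPM in every library, and *Dppa4* shows the widest gap between media.

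*Pou5f1* (chr17:35506018-35510772, plus strand, mm10) encodes Oct4, the POU-domain factor without which the pluripotent state is lost. Its RNA was 1307, 1039 and 1242 CPM in TKO-2i, against 1426, 1290 and 1352 CPM in TKO-serum. The second TKO-2i library was the lowest of the 6, and the groups overlapped, since the first TKO-2i library lay above the second TKO-serum library. The log2 fold change was −0.18 (SE 0.08, 95% interval −0.37 to 0.01), which did not pass edgeR's quasi-likelihood test (Benjamini-Hochberg adjusted p = 0.0928). On the TPM scale the values were 1057, 982 and 1012 in TKO-2i and 1249, 1249 and 1253 in TKO-serum. Here the groups did not overlap, and limma on log2(TPM + 1), which called 55.3% of tested genes, gave −0.30 (adjusted p = 0.000895). Over the 17 other settings the adjusted p of *Pou5f1* ran from 0.000778 to 0.258 and was under 0.05 in 9, and the sign was negative in all 17. Without the first TKO-2i library the log2 fold change was −0.26 and passed the test (edgeR adjusted p = 0.0267), and without the second it was −0.08 and did not (adjusted p = 0.146).

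*Sox2* (chr3:34650405-34652461, plus strand) encodes the HMG-box partner of Oct4. It stood at 192, 188 and 192 CPM in TKO-2i and at 256, 257 and 247 CPM in TKO-serum. Every TKO-2i library was below every TKO-serum library, and the libraries within a medium were close to each other. *Sox2* fell with a log2 fold change of −0.41 (SE 0.05, 95% interval −0.52 to −0.30, edgeR quasi-likelihood, Benjamini-Hochberg adjusted p = 9.74e-05), a change of −24.8%.

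*Sall4* (chr2:168748332-168767943, minus strand) and *Sall1* (chr8:89027235-89044162, minus strand) encode spalt-like zinc-finger proteins that bind Oct4 and the NuRD complex. *Sall4* was at 207, 212 and 214 CPM in TKO-2i, against 320, 318 and 318 CPM in TKO-serum. *Sall1* was at 215, 238 and 222 CPM in TKO-2i, against 304, 311 and 311 CPM in TKO-serum. For both genes the groups were far apart relative to the spread between libraries. *Sall4* fell by 0.60 on the log2 scale (SE 0.05, edgeR adjusted p = 8.54e-06) and *Sall1* by 0.46 (SE 0.05, edgeR adjusted p = 0.000117), changes of −33.9% and −27.1%.

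*Zfp42* (chr8:43295063-43306980, minus strand), also known as Rex1, is a Yy1-related zinc-finger gene long used as a marker of undifferentiated cells. Its level was 702, 618 and 648 CPM in TKO-2i, against 890, 845 and 855 CPM in TKO-serum. All TKO-2i libraries were lower. The log2 fold change was −0.40 (SE 0.06, 95% interval −0.53 to −0.26, edgeR adjusted p = 0.000369).

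*Tcl1* (chr12:105216750-105222793, minus strand), which encodes a coactivator of the kinase Akt, went the other way. Its level was 106, 101 and 114 CPM in TKO-2i, against 81.3, 76.0 and 80.3 CPM in TKO-serum. The lowest TKO-2i library was above the highest TKO-serum library. *Tcl1* rose by 0.43 on the log2 scale (SE 0.06, 95% interval 0.29 to 0.57, edgeR adjusted p = 0.000342), or 1.35-fold.

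*Dppa2* (chr16:48303908-48319723, plus strand) and *Dppa4* (chr16:48283733-48294237, plus strand) lie next to each other, 9671 bases apart on the same strand, and encode SAP-domain proteins that bind chromatin as a heterodimer. *Dppa4* was at 72.1, 69.2 and 66.4 CPM in TKO-2i, against 151, 143 and 144 CPM in TKO-serum. *Dppa2* was at 101, 108 and 79.9 CPM in TKO-2i, against 129, 141 and 129 CPM in TKO-serum. Neither gene had overlapping groups, and the third TKO-2i library was the lowest for both, by a wide gap for *Dppa2*. *Dppa4* fell most of the 10 genes, with a log2 fold change of −1.07 (SE 0.06, 95% interval −1.20 to −0.95, edgeR quasi-likelihood, Benjamini-Hochberg adjusted p = 9.94e-07), so that TKO-serum had 2.11 times the RNA of TKO-2i. *Dppa2* fell by 0.46 (SE 0.11, 95% interval −0.71 to −0.22, edgeR adjusted p = 0.00509).

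*Dppa5a* (chr9:78367052-78368177, minus strand), which encodes a KH-domain RNA-binding protein, was at 1070, 790 and 939 CPM in TKO-2i, against 1158, 921 and 1003 CPM in TKO-serum. The groups overlapped, and the libraries of each medium were spread widely. The log2 fold change of −0.14 (SE 0.12, 95% interval −0.41 to 0.13) did not pass edgeR's test (adjusted p = 0.336). Single libraries moved this value: it was −0.03 without the second TKO-2i library, −0.04 without the first TKO-serum library, −0.21 without the second TKO-serum library and −0.26 without the first TKO-2i library, and none of these passed the test.

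*Gdf3* (chr6:122605403-122610087, minus strand) encodes a TGF-beta family ligand that acts on Nodal receptors. It was at 119, 107 and 119 CPM in TKO-2i, against 126, 123 and 121 CPM in TKO-serum. Every TKO-serum library was above every TKO-2i library, by a small margin. The log2 fold change was −0.10 (SE 0.06, 95% interval −0.24 to 0.04, edgeR adjusted p = 0.187), and it passed the test in 4 of the 17 other settings (adjusted p from 0.00952 to 0.461). Without the second TKO-2i library it was −0.04. *Gdf3* lies on chromosome 6, where the median log2 fold change of 866 tested genes was 0.41, against 0.01 over all tested genes. The part of the chromosome in the value of *Gdf3* was not tested.

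**Figure D2:**
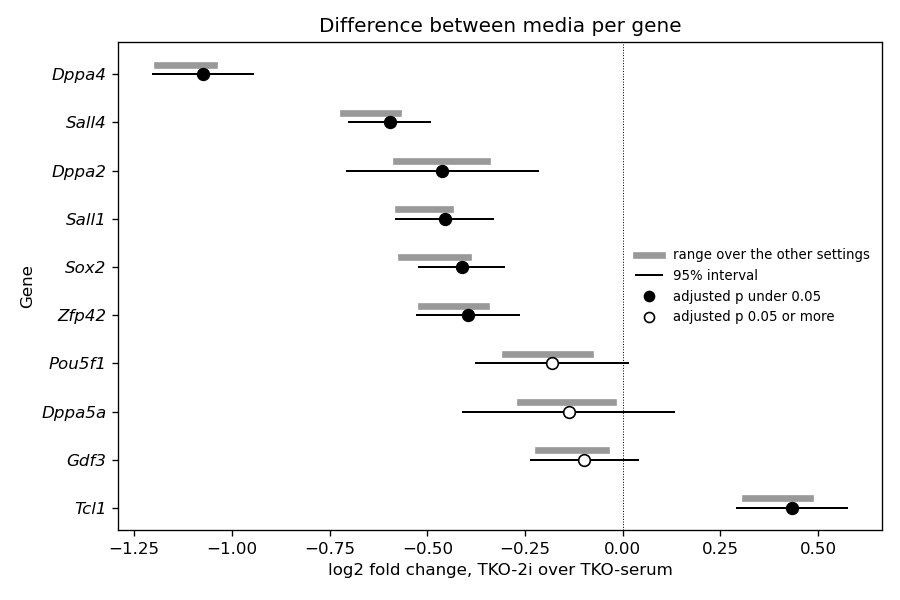
Log2 fold change (TKO-2i over TKO-serum) of each gene, with its 95% interval (thin black line) and the range over the 17 other settings (thick grey line). Filled points have an edgeR adjusted p under 0.05, open points do not. *Dppa4* is at −1.07 and *Tcl1*, at 0.43, is the only gene above 0.

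The ratio of TPM between a pair of genes within a library does not depend on how libraries are scaled. Ratios were compared for 5 pairs by an exact two-sided permutation test, whose smallest possible p with 3 libraries a group is 0.1, so none can pass 0.05. The *Dppa4* to *Dppa2* ratio was 0.804, 0.804 and 0.954 in TKO-2i and 1.32, 1.25 and 1.29 in TKO-serum. *Dppa4* RNA was thus the less abundant of the pair in every TKO-2i library and the more abundant in every TKO-serum library (difference in mean log2 ratio −0.60, exact permutation p = 0.1, 0.125 after Benjamini-Hochberg adjustment over the 5 pairs). The *Sox2* to *Pou5f1* ratio was 0.148, 0.179 and 0.154 in TKO-2i and 0.186, 0.202 and 0.189 in TKO-serum. With TPM its groups did not overlap either, and the difference in mean log2 ratio was −0.27 (exact permutation p = 0.1, adjusted 0.125). With estimated counts in place of TPM the difference was −0.22, and the *Sox2* to *Pou5f1* ratios of the media overlapped. *Zfp42* to *Pou5f1* was 0.513, 0.548 and 0.494 in TKO-2i against 0.591, 0.602 and 0.591 in TKO-serum, a log2 difference of −0.20. *Dppa5a* to *Dppa4* was 41.7, 30.7 and 39.5 in TKO-2i against 21.8, 17.2 and 19.6 in TKO-serum, a log2 difference of 0.93. Both of these reached the smallest exact permutation p of 0.1 (adjusted 0.125). *Sall1* to *Sall4* was 0.796, 0.948 and 0.784 in TKO-2i and 0.785, 0.766 and 0.790 in TKO-serum, where the groups overlapped (exact permutation p = 0.3, adjusted 0.3). The TPM ratios of the media thus overlapped for the *Sall* genes and not for *Dppa4* and *Dppa2*, and the difference between these pairs was not tested. For *Sall1* to *Sall4* the log2 difference was 0.11 with TPM, and 0.02 without the second TKO-2i library. With estimated counts in place of TPM it was 0.14, and the ratios of the media did not overlap.

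Of the 10 genes 7 have several annotated transcripts, and in each of these 1 transcript held most of the TPM in every library. The transcript that begins at the first start of *Pou5f1*, which encodes the full-length Oct4, held 99.6% to 99.7% of *Pou5f1* TPM in both media. Each of the 5 transcripts from inner starts of *Pou5f1* held at most 0.210% of its TPM in any library, and Pou5f1-202 was at 0 in all 6. Dppa4-202 held 89.9% to 94.0% of *Dppa4* TPM in TKO-2i and 89.6% to 94.2% in TKO-serum, and the retained-intron transcript Dppa4-203 held 2.73% to 6.77% over the 6 libraries. The leading *Dppa2* transcript held 83.2% to 86.0% in TKO-2i and 84.6% to 85.5% in TKO-serum. The share varied most between libraries for *Sall4*, whose leading transcript held 71.8%, 87.5% and 70.7% in TKO-2i and 86.0%, 76.9% and 80.3% in TKO-serum. Sall4-202 was estimated at 0 in the second TKO-2i library and at 16.3% in the third. Shares of the leading transcript overlapped between the media for all 7 genes, and the exact permutation p was at least 0.4 (adjusted p = 1 for each of the 7). *Sox2*, *Sall1* and *Dppa5a* have a single transcript each.

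Several of the 10 genes share sequence with other annotated genes, some of them pseudogenes. The share of 31-base words of the leading transcript that also occur in transcripts of other genes was 57.2% for *Dppa5a*, 44.3% for *Dppa4*, 42.1% for *Dppa2*, 22.7% for *Pou5f1* and 14.6% for *Zfp42*. It was at most 5.22% for the other 5 genes, and 0 for *Tcl1*. For *Dppa5a* the gene with most shared words was *Pigp* (22.8% of words), at 9.06, 10.9 and 10.2 CPM in TKO-2i, against 7.52, 8.10 and 7.09 CPM in TKO-serum. The processed pseudogene *Gm14058*, which shares most words with *Dppa4*, was at 2.30, 2.91 and 2.77 CPM in TKO-2i, against 4.90, 5.07 and 5.46 CPM in TKO-serum. *Gm9788*, which shares most words with *Dppa2*, was at most 0.622 CPM, and *Dppa5b*, the pseudogene on the same chromosome as *Dppa5a*, at most 1.05 CPM. *Zfp42-ps1* was at 9.08, 8.98 and 9.99 CPM in TKO-2i, against 13.1, 12.8 and 12.6 CPM in TKO-serum. *Gm14058* and *Zfp42-ps1* were thus lower in TKO-2i, like their parent genes, and whether their counts come from the parents' RNA was not tested. *Gm19553*, annotated antisense to *Pou5f1*, was at most 0.0752 CPM.

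RefSeq promoters (GRCm38.p6) were at hand for 5 of the 10 genes, *Pou5f1*, *Sox2*, *Sall1*, *Zfp42* and *Tcl1*, with 8 windows among them. The 250 bases before a start are shown for the 4 genes below because *Sox2* and *Zfp42* fell together, *Tcl1* rose, and *Pou5f1* did not pass the test, and the second window of *Pou5f1* (chr17:35508557-35508806, plus strand) and the 3 windows of *Sall1* are not shown. Capitals mark matches, on either strand, to the octamer ATGCAAAT bound by POU factors, the SOX core ACAATG, the GC box GGGCGG and the nuclear receptor site AGGTCA, which do not overlap each other in these windows. The windows are chr17:35505782-35506031 (plus strand) for *Pou5f1*, chr3:34649745-34649994 (plus) for *Sox2*, chr8:43307010-43307259 (minus) for *Zfp42* and chr12:105222738-105222987 (minus) for *Tcl1*.
Pou5f1: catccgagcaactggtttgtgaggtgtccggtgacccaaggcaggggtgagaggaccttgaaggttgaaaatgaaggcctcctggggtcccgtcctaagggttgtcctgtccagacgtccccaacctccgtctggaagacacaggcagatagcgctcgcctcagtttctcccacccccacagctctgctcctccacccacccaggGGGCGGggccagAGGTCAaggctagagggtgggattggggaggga
Sox2: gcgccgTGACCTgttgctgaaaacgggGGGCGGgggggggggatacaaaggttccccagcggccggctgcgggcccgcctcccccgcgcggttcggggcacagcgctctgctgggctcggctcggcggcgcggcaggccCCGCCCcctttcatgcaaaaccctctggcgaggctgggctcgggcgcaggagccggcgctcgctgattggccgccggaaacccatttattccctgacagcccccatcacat
Zfp42: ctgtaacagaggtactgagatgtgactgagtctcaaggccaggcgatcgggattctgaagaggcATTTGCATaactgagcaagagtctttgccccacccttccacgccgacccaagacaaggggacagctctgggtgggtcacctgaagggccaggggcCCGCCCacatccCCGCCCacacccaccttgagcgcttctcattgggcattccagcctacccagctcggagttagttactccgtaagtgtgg
Tcl1: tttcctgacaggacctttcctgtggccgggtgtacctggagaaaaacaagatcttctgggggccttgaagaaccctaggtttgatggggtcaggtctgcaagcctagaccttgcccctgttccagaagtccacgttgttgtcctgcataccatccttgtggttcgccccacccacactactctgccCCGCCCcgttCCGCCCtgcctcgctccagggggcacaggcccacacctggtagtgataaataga
The octamer occurred in 1 of the 8 windows, that of *Zfp42*, and in 1.6% of 32851 promoter windows of this length. At least 1 GC box was found in 6 of the 8 windows, the 4 shown and 2 of *Sall1*, and in 32.7% of all. The nuclear receptor site was in 2 of the 8, the *Pou5f1* and *Sox2* windows shown, and in 14.0% of all. The SOX core was in 1 of the 8, the second window of *Pou5f1*, and in 10.7% of all. CpG counts of the windows shown were 27 for *Sox2*, 9 for *Zfp42*, 8 for *Pou5f1* and 7 for *Tcl1*, and of those not shown 6 for *Pou5f1* and 13, 25 and 30 for *Sall1*, against a median of 6 over all windows. The window of *Tcl1* ends at the start of the leading *Tcl1* transcript, while that of *Sox2* ends 410 bases before the annotated start of *Sox2*. A match is a description of the letters and was not tested for binding.

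Neighbouring genes within 50 kb did not all follow the members. Beside *Pou5f1*, *Tcf19* and *Cchcr1* rose (log2 fold changes 0.32 and 0.45) and *H2-Q10* and *Cdsn* fell (−0.61 and −1.34). The *Psors1c2* value beside *Pou5f1* was −0.16 (edgeR adjusted p = 0.251). *Atp9a*, next to *Sall4*, rose by 0.66 while *Sall4* fell. *Sox2ot*, a noncoding gene that overlaps *Sox2* on the same strand, was at 1.01 ± 0.487 CPM in TKO-2i, against 2.15 ± 0.234 CPM in TKO-serum (SD, n = 3), and its log2 fold change was −1.10. The other tested neighbours of *Sox2*, *Gm42693* and *Gm3143*, were under 1 CPM and did not pass the test. Beside *Dppa5a*, *Ooep* fell (−0.46) and *Ddx43* did not pass the test (−0.15). Beside *Gdf3*, *Apobec1* and *Dppa3* rose (0.52 and 0.48), values near the median of 0.50 over the 645 genes of chromosome 6 with at least 1 CPM.

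The partners of the 10 genes in the naive circuit moved in both directions. In a list of 20 such genes 9 rose, 7 fell and 4 did not pass the test, and with upper-quartile scaling 8 fell. The median of the list was 0.06 on the log2 scale, beside 0.01 over all tested genes. *Utf1*, a chromatin-associated target of Oct4 and Sox2, was at 80.0, 68.1 and 83.1 CPM in TKO-2i, against 200, 183 and 198 CPM in TKO-serum, and its log2 fold change was −1.33. *Tfcp2l1* and *Tbx3*, naive transcription factors, had log2 fold changes of 1.96 and 1.52, and *Esrrb*, an orphan nuclear receptor gene, had 0.33. The *Fgf4* value was −0.09 (edgeR adjusted p = 0.153), and it passed the test with upper-quartile scaling (adjusted p = 0.00691) and total counts (adjusted p = 0.0424). Genes controlled by composite elements of Oct4 and Sox2 did not share a direction: of 5, *Nanog*, also on chromosome 6, rose (0.60), *Utf1* and *Lefty1* (−2.16) fell, and 2 did not pass the test, with a median of −0.09.

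Some paralogs of the members had larger fold changes than the members. Of 14 other Pou genes 10 were tested, and 3 rose, 5 fell and 2 did not pass the test (median −0.48), and with upper-quartile scaling 6 fell. *Pou2f3* was at 22.6, 22.7 and 21.3 CPM in TKO-2i, against 2.00, 2.26 and 2.22 CPM in TKO-serum, and *Pou6f1* at 21.1 ± 0.745 against 3.55 ± 0.565 CPM (SD, n = 3). *Pou3f1*, known as Oct6 and associated with primed cells, was at 3.06, 2.93 and 3.03 CPM in TKO-2i, against 22.2, 20.5 and 19.0 CPM in TKO-serum, and *Pou2f2* at 0.602 ± 0.0993 against 6.39 ± 0.496 CPM (SD, n = 3). These 4 paralogs had log2 fold changes of 3.36, 2.57, −2.77 and −3.40. Of 18 Sox genes other than *Sox2*, 15 were tested, of which 12 fell, 2 rose and 1 did not pass the test, with a median of −1.57. *Sox4* fell from 24.5 ± 0.840 to 2.03 ± 0.195 CPM (SD, n = 3), a log2 fold change of −3.59, and *Sox18*, *Sox8* and *Sox7* had −3.17, −2.26 and −4.05. *Sox7* was at 4, 7 and 6 counts in the TKO-2i libraries, so the size of its fold change depends on the prior count. With upper-quartile scaling 1 Sox gene rose instead of 2. *Sall2* fell (−0.58) and *Sall3* rose (0.44), so the 4 Sall genes did not share a direction. Relatives of *Zfp42*, *Yy1* and *Yy2*, did not pass the test (−0.07 and 0.13), though *Yy1* did with upper-quartile scaling and with total counts (adjusted p = 0.00797 and 0.0483). In the *Tcl1* family only *Mtcp1*, of 6 genes, had counts enough to be tested (0.43, edgeR adjusted p = 0.0507), and *Tcl1b3* and *Tcl1b4* were at 0 in all 6 libraries. Of other Dppa genes, *Dppa3* rose (0.48) and *Dppa1* was too low to be tested.

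**Figure D3:**
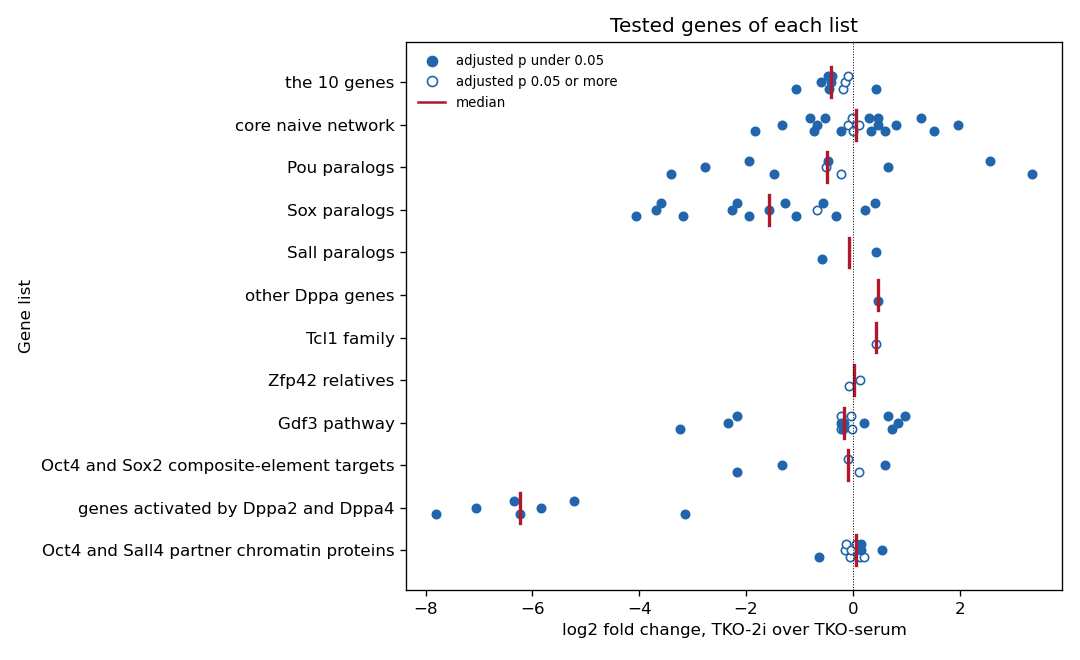
Log2 fold change (TKO-2i over TKO-serum) of each tested gene of the pathway lists, a point for each gene, filled where the edgeR adjusted p is under 0.05, with a red line at the list's median. The 10 genes have a median of −0.40, and the Sox paralogs −1.57. Values of genes near 0 CPM in TKO-2i, such as *Sox7* and genes activated by Dppa2 and Dppa4, depend on the prior count.

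The pathway of *Gdf3* runs from TGF-beta family ligands and their convertases through activin receptors and the coreceptor Tdgf1 to Smad proteins. Of 16 genes 15 were tested, with 5 up, 6 down and 4 that did not pass the test (median −0.16), and with upper-quartile scaling 4 up and 9 down. Among ligands and antagonists, *Gdf1* had a log2 fold change of −3.24 and *Lefty1* of −2.16, *Lefty1* being at 48.0, 43.7 and 43.4 CPM in TKO-2i, against 212, 182 and 211 CPM in TKO-serum. The convertase gene *Pcsk6* (0.85) and the signal transducer *Smad3* (0.98) rose.

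Sall4 and Oct4 recruit the NuRD complex, and of a list of 11 genes of the complex 3 rose, 1 fell and 7 did not pass the test, with a median of 0.06. *Mta2* rose by 0.54 and *Mta3* fell by 0.64 on the log2 scale. *Gatad2a* (0.16) and *Rbbp7* (0.15) passed the test in the TMM-scaled fit but not with DESeq2 size factors, upper-quartile scaling or total counts (edgeR adjusted p from 0.0514 to 0.521 and from 0.0657 to 0.691), and with upper-quartile scaling 1 of the 11 rose and 5 fell.

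Dppa2 and Dppa4 are known to activate genes of the 2-cell-like state, a rare state in mESC cultures. Of 7 such genes, which are also the 2-cell-like markers used here, 7 fell. Their summed level was 3.17, 2.68 and 2.53 CPM in TKO-2i, against 70.3, 74.4 and 76.1 CPM in TKO-serum, and by CPM *Zscan4f* held most in TKO-serum and *Tmem92* in TKO-2i. *Zscan4c* was at 0 in the second TKO-2i library, and *Duxf3* and *Zfp352* were each at 0 in 2 TKO-2i libraries. In the second TKO-2i library 3 counts correspond to 0.0682 CPM, a floor that covers counting error only. Zscan4 genes are near-identical copies, so the split between them is uncertain. The markers moved with *Dppa4* and *Dppa2*, and their part in those values, or the reverse, was not tested.

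Markers of other cell types were also measured. Of 8 trophectoderm markers 3 rose and 4 fell, with a summed level of 95.3, 81.6 and 87.0 CPM in TKO-2i, against 68.0, 65.4 and 62.5 CPM in TKO-serum and *Tfap2c* the gene of most CPM. *Cdx2*, which Oct4 represses in the embryo, was at 6.45, 3.80 and 7.25 CPM in TKO-2i, against 0.389, 0.357 and 0.152 CPM in TKO-serum, and *Eomes* rose by 2.81 on the log2 scale, whereas *Hand1* and *Krt7* had −2.11 and −1.75. Of 8 primitive endoderm markers 7 fell, the sum being 28.3, 27.6 and 26.0 CPM in TKO-2i, against 173, 167 and 166 CPM in TKO-serum, with *Col4a1* (−2.95) the gene of most CPM and *Dab2* (−4.35) and *Pdgfra* (−2.50) also lower. Of 6 tested neural markers of 7, 5 fell and *Nes* rose (0.54), and the sum was 210, 186 and 199 CPM in TKO-2i against 263, 244 and 249 CPM in TKO-serum, most of it *Tubb3*. *Pax6*, *Map2* and *Sox1* had log2 fold changes of −2.46, −1.65 and −1.28.

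Of 6 markers of primitive streak and mesoderm 5 were tested and 3 rose, with sums of 32.4, 29.6 and 37.7 CPM in TKO-2i, against 6.51, 7.05 and 6.94 CPM in TKO-serum, with *Kdr* the gene of most CPM in TKO-serum. In TKO-2i *Eomes* held most CPM in 2 libraries and *T* in the third. *T* was at 12.2, 10.2 and 18.9 CPM in TKO-2i and at most 0.337 CPM in TKO-serum. Fibroblast markers were low, with sums of 19.9, 16.9 and 15.8 CPM in TKO-2i, against 14.6, 13.5 and 13.2 CPM in TKO-serum. By CPM *Pdgfrb* held most in TKO-2i and *Thy1* in TKO-serum. Of 7 fibroblast markers 4 were tested, and *Pdgfrb* rose (1.62) and 2 fell, *Thy1* among them (−0.42). *Col3a1*, *Dcn* and *Lum* were at most 0.285 CPM in any library. The part of these cell types in the values of the 10 genes was not tested.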

How the data were processed

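The authors deposited, for every transcript of each library, an estimated count of reads, a TPM value, a length and an effective length, in salmon's column layout. The tool's version and index are not given in the sources used here, and the methods of the study describe another alignment and RPKM values. These estimated counts of the authors carry no normalization and divide reads shared between transcripts (85.1% to 85.8% of values above 0 were not exactly whole numbers as deposited), which makes genes that share sequence uncertain. Deposited TPM is scaled for length and to a fixed library sum. It already rests on effective length, which thus enters the TPM levels, ranks, ratios and limma fits. Apart from TPM, effective length entered only the length-scaled counts. It did not overlap between media for *Sox2* (means of 1461 in TKO-2i and 1405 in TKO-serum) and *Sall1* (5350 and 5316). With estimated counts in place of TPM the log2 difference of *Sox2* to *Pou5f1* was −0.22, and the ratios of the media overlapped. The submitters' processing notes name mm10.

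Transcript identifiers were looked up in GENCODE M21 (GRCm38), and at most 0.0643% of a library's counts were unmatched. Gene sums of the counts were rounded, passed through filterByExpr, scaled by TMM and tested with glmQLFit and glmQLFTest in edgeR 4.0.16 (R 4.3.3), with medium as the only factor and Benjamini-Hochberg adjustment over 18177 genes; SE is the absolute log2 fold change over the square root of F. Fits were tested on simulated data. DESeq2 1.42.0 and limma 3.58.1 were used as alternatives, with other scalings, filters, pseudocounts and left-out libraries. Replicates are labelled as biological, but nothing says they were separate cultures from the start, so p-values measure the spread between these libraries. The sequencing pool of each library is not given in the sources used here. Named genes are the 10 members; Dnmt genes; *Nanog*, *Esrrb*, *Utf1* and *Fgf4*; from each list up to 4 genes past the test with a mean of at least 1 CPM and the largest fold change; tested neighbours within 50 kb; and for 3 members the most correlated gene. Other named genes were chosen after their values were seen, as were the promoter motifs. The members and lists were chosen with earlier results of these data known.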

Additional observations from a re-analysis of the deposited data

How the results depend on the processing

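No member changed sign in any of 17 settings, and the 7 calls were kept in all 17. *Pou5f1*, not called with TMM (−0.18), was called at −0.30 with upper-quartile factors, −0.24 with total counts alone, −0.22 with at least 10 counts in every library, −0.20 with counts from length-scaled TPM, −0.22 with protein-coding transcripts only, and −0.30 in limma with a pseudocount of 1 and of 0.1; leaving out single libraries gave −0.26 to −0.0838, with a call (adjusted p = 0.0267) only without the first TKO-2i library. *Gdf3* was called at −0.22 with upper-quartile factors, −0.16 with total counts alone, and −0.18 and −0.19 in limma with pseudocounts of 1 and 0.1. The causes were not tested. Upper-quartile scaling moved the median log2 fold change of all genes by −0.12, and 40.3% of its calls were higher in TKO-2i against 51.1% with TMM. Genes past an absolute log2 fold change of 2 numbered 1671, and 2593 with no filter on low counts, 692 with at least 10 counts in every library (fewer genes tested) and 322 in limma with a pseudocount of 1. The 5 TPM ratios kept their sign with counts in place of TPM, protein-coding transcripts only or a library left out.

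Replicate numbers did not clearly pair the libraries: same-numbered libraries had correlations of deviations of 0.380, 0.498 and 0.0638, and the third TKO-2i library correlated best with the first TKO-serum library (0.197). With the replicate block 12539 genes were called against 11361 without it, *Pou5f1* was at −0.19 (adjusted p = 0.00699) and *Dppa5a* at −0.14 (adjusted p = 0.0131), and no other call of the 10 changed. The 10 genes had at least 2830 counts in each library, and the part of depth in the calls was not tested.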

Other observations

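The genes whose profile over the 6 libraries was most like that of a member were sought among 9057 protein-coding genes of at least 10 CPM, by Pearson's r of log2(CPM + 1), for the 3 members with the largest fold change. Most of such an r is the difference between the media, so it is a description with no p. *Nefh*, a neurofilament gene, was most like *Dppa4* (r = 0.9997) with 180 ± 3.77 CPM in TKO-serum against 75.6 ± 3.43 in TKO-2i (SD, n = 3). *Sulf1*, a heparan sulfate sulfatase gene, was most like *Sall4* (r = 0.9999), with 81.5 ± 0.320 CPM in TKO-serum against 25.5 ± 1.28 in TKO-2i. *Ptk2*, the focal adhesion kinase gene, was most like *Dppa2* (r = 0.998), although its log2 fold change was −0.15. An r above 0.95 was reached by 1174 genes for *Dppa4*, 1193 for *Sall4* and 78 for *Dppa2*.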
